A study of Neurospora crassa with 8 samples.

Results

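The 8 libraries of the series were set against each other by strain code, the code that stands in the name of each deposited count file. The codes 3752-1 (wild type) and 7374 (ve-1) had more counts of matA-1 (NCU01958) in each group than the codes 3753 (wild type) and 7373 (ve-1). All 8 of 8 libraries took part, 4 a side, and each strain code was grown once in each of 2 media. Below, the matA-1 side means 3752-1 and 7374, and the other side means 3753 and 7373. The sides were chosen by the counts of matA-1, so those counts are given as a description, and no test of matA-1 is read as a result, although the gene stays in the shares given over all tested genes.

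The study grew Neurospora crassa, a filamentous ascomycete, as shaken cultures at 32 °C for 48 h with 1.5% sucrose and sequenced their poly(A) RNA. The 4 groups of 2 libraries were wild type in standard Vogel's medium, wild type in medium made without iron, and ve-1, a mutant of the velvet gene of that name, in the same 2 media. The labels name mycelia as the tissue and germinated conidia as the source. They give no mating type, no strain background, no light regime and no more of the ve-1 allele than its name, and the 2 strain codes of a genotype are not described apart from each other.

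Neurospora crassa has 2 mating types, A and a, set by unlike stretches of DNA at a single locus, the idiomorphs. The annotated reference strain carries the A idiomorph with its genes matA-1, matA-2 and matA-3, so transcripts of the a idiomorph have no entry in the count files. Strains of mating type A are known to express the pheromone precursor gene ccg-4, and strains of mating type a the precursor gene mfa-1. PRE-1 and PRE-2 are the receptors for the MFA-1 and CCG-4 pheromones.

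Libraries held 6654585 to 10192729 counts over 9730 genes, and the 10 most abundant genes took 7.86% to 18.55% of them. Scaling factors by the trimmed mean of M values (TMM) ran from 0.774 to 1.26. Levels below are CPM (counts scaled to a fixed library total) after that scaling, and each value is 1 library. The ve-1 transcript (NCU01731) ran from 156 to 269 CPM over the wild-type libraries and from 1.76 to 6.43 CPM over those of ve-1. Its highest level in the mutant was in 7374 in iron-free medium, with 80 counts against 15 to 28 in the other 3. Libraries of 1 group differed far beyond sampling noise, with a chi-square per degree of freedom of 35.3 in ve-1 standard medium to 152.7 in ve-1 iron-free medium.

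In standard medium matA-1, which encodes the alpha-domain regulator of mating type A, had 118 counts in 3752-1 and 0 in 3753. In ve-1 in standard medium it had 403 counts in 7374 and 0 in 7373. In wild type in iron-free medium it had 74 counts in 3752-1 and 0 in 3753. Against the limit set by 3 counts in the library at 0, the level was at least 37.6-fold higher in 3752-1 than in 3753 in standard medium and at least 19.1-fold higher in iron-free medium, and at least 152-fold higher in 7374 than in 7373 in standard medium. The difference was weak in the ve-1 libraries from iron-free medium, which had 5 counts in 7374 and 1 in 7373, a ratio of 3.42 with an exact 95% interval of 0.383 to 162. That interval, like the other limits and intervals on counts given here, covers counting error only. matA-2 and matA-3, the other 2 genes of the idiomorph, had 0 to 7 counts in every library and were not tested. The flanking genes eat-2, eat-3, eat-5 and eat-6 had log2 differences (matA-1 side minus other side) of -0.18 to 0.08 and none was called, though eat-5 and eat-6 overlap other annotated genes. Larger differences were seen at the nearest tested genes on either side, NCU01957 and NCU01961. They had -0.86 ± 0.62 and 0.29 ± 0.35 (adjusted p = 0.999 for each, edgeR). Within ve-1, NCU01957 had -2.01 ± 0.72 (adjusted p = 0.997, edgeR).

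**Figure D1:**
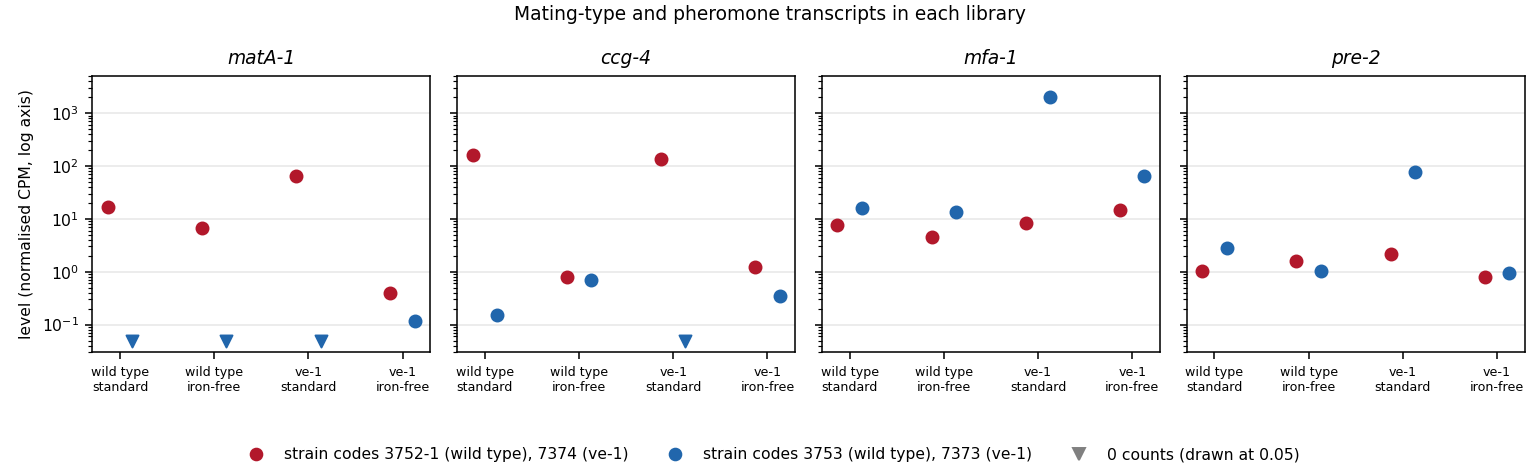
Level of matA-1, ccg-4, mfa-1 and pre-2 in each of the 8 libraries, as normalised CPM on a log axis, with the matA-1 side in red and the other side in blue; triangles mark libraries with 0 counts, drawn at 0.05. ccg-4 stood above 100 CPM in 3752-1 and 7374 in standard medium and at or below 1.21 CPM in the other 6 libraries, and mfa-1 was highest in 7373 in standard medium, at 2049 CPM.

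The pheromone precursor gene ccg-4 differed between the sides mainly in standard medium. There it stood at 162 CPM in 3752-1 and 0.151 CPM in 3753 in wild type, and at 137 CPM in 7374 and 0 CPM in 7373 in ve-1. In iron-free medium it stood at 0.812 CPM in 3752-1 and 0.701 CPM in 3753 in wild type, and at 1.21 CPM in 7374 and 0.352 CPM in 7373 in ve-1. Thus the 2 standard-medium libraries of the matA-1 side were high and all other libraries were low, whichever side they came from. The ratio in wild type in standard medium was 1070 (exact 95% interval 192 to 42300, from 1119 counts and 1 count), and in ve-1 the level was at least 328-fold higher in 7374. In iron-free medium the ratios were 1.16 (0.368 to 3.96) in wild type and 3.42 (0.968 to 18.4) in ve-1. Over both genotypes and media, the log2 difference was 6.70 ± 1.87 (SE derived from the F statistic, 4 libraries a side), which did not pass the threshold (adjusted p = 0.999, edgeR). Its size, like that of the difference between media below, depends on the prior count because 7373 held 0 counts in standard medium. Leaving out any 1 library moved the log2 difference by over 1.5 times in fold, to between 4.70 (without 7374 in standard medium) and 8.59 (without 3753 in iron-free medium). As group was a block, the partner of a left-out library told nothing of the side, so each such value is in effect without the pair. The difference between media, iron-free minus standard, was -9.82 ± 1.05 on the log2 scale (adjusted p = 0.543, edgeR), and DESeq2 called it (adjusted p = 3.624e-06); over the 13 alternatives to the edgeR fit its adjusted p ran from that value to 0.599.

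For mfa-1, the a-type pheromone precursor gene, the order was the opposite in every group. In wild type it stood at 7.51 CPM in 3752-1 and 15.9 CPM in 3753 in standard medium, and at 4.60 and 13.4 CPM in iron-free medium. In ve-1 it stood at 8.49 CPM in 7374 and 2049 CPM in 7373 in standard medium, and at 14.5 and 65.4 CPM in iron-free medium. mfa-1 was therefore lower on the matA-1 side in all 4 groups, as were 4.53% of the tested genes, although the highest value of that side (14.5 CPM) exceeded the lowest of the other side (13.4 CPM). The 7373 library in standard medium held 241 times (185 to 321) the level of 7374, against ratios of 2.11 (1.5 to 3) and 2.92 (2.08 to 4.14) in the 2 wild-type groups. Over both genotypes the log2 difference was -2.66 ± 1.17 (adjusted p = 0.999, edgeR). It became -1.62 and -1.61 without 7373 or 7374 in standard medium, and -3.39 without either wild-type library from that medium.

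The receptor gene pre-2 was high in a single library. It stood at 76.7 CPM in 7373 in standard medium and at 0.803 to 2.87 CPM in the other 7 libraries, so that 7373 was 34.8 times (20.6 to 64.1) above 7374 there. The ratio in iron-free ve-1 cultures was 1.17 (0.401 to 3.29). The other receptor gene, pre-1, stood at 14 CPM in 7374 in standard medium and at 3.34 to 5.73 CPM elsewhere. poi-2, a gene known from sexual tissue, was likewise highest in 7373 in standard medium, at 633 CPM against 71.3 CPM in 7374, and ran from 0.161 to 17.7 CPM in the other 6 libraries. In wild type it did not follow that order, with 3.32 CPM in 3752-1 and 3.47 CPM in 3753 in standard medium, and 17.7 and 1.17 CPM in iron-free medium. Its difference between genotypes was -5.33 ± 1.31 (adjusted p = 0.898, edgeR), and DESeq2 called that difference (adjusted p = 0.000686). Within ve-1, the log2 difference of poi-2 was -3.40 ± 0.90 (adjusted p = 0.997, edgeR; adjusted p = 0.0203, DESeq2; lowest and highest over its 14 alternatives 0.0203 and 1). In bulk RNA, more cells of a kind and more RNA per cell cannot be told apart. None of the 8 other genes of sexual development on the list used here was called in any comparison by either tool.

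The genes that carry the pheromone signal inward had small differences. Of 9 genes on that list, 8 were tested: the G protein subunits gna-1, gnb-1 and gng-1, the kinases nrc-1, mek-2 and mak-2, the transcription factor pp-1, and ty-1. Their log2 differences over both genotypes were 0.01 to 0.14 in size, beside a median size of 0.17 over all 8118 tested genes, and none was called. gna-1, for example, stood at 132 and 144 CPM in wild type in standard medium and 141 and 178 CPM in iron-free medium (3752-1 first), and at 116 and 114 CPM and 212 and 221 CPM in ve-1 (7374 first). The ninth, fmf-1, had at most 1 count a library.

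Across all genes, the comparison over both genotypes was fitted by edgeR's quasi-likelihood F test with group as a block. It called 0 of 8118 genes at an adjusted p under 0.05 (0%), and 241 genes had an unadjusted p under 0.05 (2.97%). DESeq2 called NCU09636 and NCU09641, both lower on the matA-1 side (0.0246%) and both described below. A gene was higher or lower on the matA-1 side in all 4 groups in 849 cases (10.5%), and the 4 libraries of the sides did not overlap for 25 (0.308%).

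The strain differences of the 2 genotypes bore little relation to each other. Across 8118 genes, the log2 difference 3752-1 minus 3753 in wild type and 7374 minus 7373 in ve-1 gave r = -0.11 (Pearson) and rho = -0.05 (Spearman). Within a genotype, the log2 differences of the same 2 strain codes in the 2 media had an r of 0.06 (rho -0.02) in wild type and of 0.00 (rho -0.05) in ve-1. These are descriptions across genes, which share their libraries and are not independent replicates. In standard medium, 237 genes differed over 4-fold between 3752-1 and 3753 and 65 between 7374 and 7373. In iron-free medium 187 did so in each genotype.

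**Figure D2:**
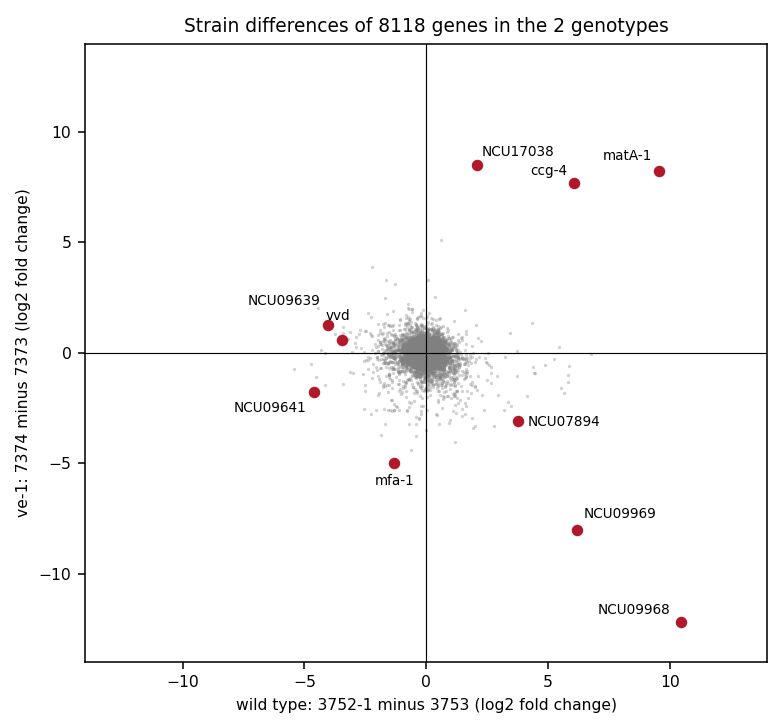
Fitted log2 difference of each of 8118 tested genes in wild type (3752-1 minus 3753, horizontal axis) and in ve-1 (7374 minus 7373, vertical axis), 2 libraries a strain code; red points are genes named in the text. Most genes lie near 0 on both axes, with matA-1 and ccg-4 at the upper right and NCU09968 and NCU09969 at the lower right.

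The smallest p values over both genotypes belonged to NCU09641 and NCU09636, which lie beside pks-5 and are described further below. Their log2 differences were -4.42 ± 0.48 and -4.15 ± 0.52 (adjusted p = 0.372 for both, edgeR; 3.37e-05 to 1 and 1.27e-06 to 1 over their alternatives, lowest with DESeq2). These rest on wild type, since each ve-1 library held 0 to 3 counts of either gene, and without a wild-type library from iron-free medium they were -3.20 or -3.30 and -2.96 or -3.10. The other genes picked for small p values had log2 differences of 0.67 to 0.95 in size. Among those higher on the matA-1 side, NCU00680 stood at 423 and 221 CPM in wild type in standard medium (matA-1 side first) and 172 and 125 CPM in iron-free medium, and in ve-1 at 343 and 182 CPM and 948 and 522 CPM. The matA-1 side was above the other in each group, while the 2 sides overlapped between groups. Its log2 difference was 0.80 ± 0.18 (adjusted p = 0.999, edgeR). NCU04932, NCU00722, NCU04280 and NCU00292 were higher in all 4 groups as well, by 0.69 to 0.95 on the log2 scale. NCU00680, NCU04932 and NCU00722 overlap other annotated genes. Among the others lower on the matA-1 side, NCU09566, NCU02317 and NCU08064 had log2 differences of -0.85, -0.89 and -0.67, each lower in all 4 groups (adjusted p = 0.999 for each, edgeR), and NCU09566 overlaps another gene. NCU08064, for example, stood at 115 and 183 CPM and 41.0 and 64.5 CPM in wild type and at 167 and 252 CPM and 29.1 and 49.2 CPM in ve-1.

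NCU17038, a gene of unknown function, was higher on the matA-1 side in every group, as were 5.93% of the tested genes, and was picked out after its values were seen. It had 1 count in 3752-1 and 0 in 3753 in standard medium, and 5 and 1 in iron-free medium. In ve-1 it had 16 counts in 7374 and 0 in 7373 in standard medium, and 98 and 0 in iron-free medium. Over both media the level in 7374 was at least 31.7-fold above that in 7373, while the wild-type ratio of 5.06 had an interval of 0.614 to 233. Over both genotypes its log2 difference was 5.68 ± 1.12, a size that depends on the prior count because some libraries held no count (adjusted p = 0.999, edgeR).

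Genes near the mating-type locus were described by their place in the order of genes on the same chromosome of the reference annotation, in bins drawn after the values were seen. Of the genes 1 to 25 places away on either side, 4 of 41 had an unadjusted p under 0.05 over both genotypes (9.76%, beside 2.97% of all genes). The share was 1 of 41 (2.44%) for places 26 to 50, 11 of 77 (14.3%) for places 51 to 100, 11 of 161 (6.83%) for places 101 to 200, 11 of 333 (3.30%) for places 201 to 400 and 33 of 1386 (2.38%) beyond. On the other chromosomes it was 169 of 6077 (2.78%). Direction was the same in all 4 groups for 16 of the 77 genes at places 51 to 100 (20.8%), beside 10.5% of all genes.

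Within that stretch rid-1, the DNA methyltransferase homologue needed for repeat-induced point mutation, was lower on the matA-1 side in every group. It stood at 0.722 and 1.96 CPM in wild type in standard medium and 0.902 and 2.34 CPM in iron-free medium (matA-1 side first), and in ve-1 at 2.05 and 6.13 CPM and 1.29 and 3.88 CPM. The ratio of the other side to the matA-1 side was thus 2.72, 2.59, 3 and 3.01 in the 4 groups, from 5 to 44 counts a library, although levels overlapped between genotypes. The log2 difference was -1.49 ± 0.34 (adjusted p = 0.999, edgeR). NCU02042 was the reverse, with ratios of the matA-1 side to the other of 2.39 and 4.29 in wild type and 1.81 and 2.13 in ve-1, a log2 difference of 1.27 ± 0.29 (adjusted p = 0.999, edgeR). NCU02049 stood at 22.3 and 20 CPM in 7374 against 65.8 and 72.8 CPM in 7373 (standard medium first), without overlap (as for 6.25% of the genes, lower in 7374), and at 21.1 and 34.7 CPM in 3752-1 against 26.6 and 48.9 CPM in 3753. In ve-1 its log2 difference was -1.71 ± 0.25 (adjusted p = 0.997, edgeR; adjusted p = 0.00778, DESeq2; 0.00778 to 1 over its 14 alternatives).

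A different division of the strain codes was seen at NCU09968, a gene of unknown function. In wild type it had 843 counts in 3752-1 and 0 in 3753 in standard medium, and 1154 and 1 in iron-free medium. In ve-1 it had 0 counts in 7374 and 562 in 7373 in standard medium, and 0 and 561 in iron-free medium. The gene was therefore at 65.9 to 122 CPM in both libraries of 3752-1 and of 7373, and at 0 to 0.117 CPM in both libraries of 3753 and of 7374, a split that goes with matA-1 in wild type and against it in ve-1. In standard medium the level was at least 269-fold higher in 3752-1 than in 3753 and at least 166-fold higher in 7373 than in 7374. In iron-free medium the ratio in wild type was 891 (160 to 35200), and in ve-1 the level was at least 273-fold higher in 7373. The 7374 library from iron-free medium, in which matA-1 was weak, thus matched the 7374 library from standard medium at this gene.

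NCU09968 was called in wild type (adjusted p = 0.0420, edgeR), where edgeR called 3 of 8118 genes (0.037%), 1 higher in 3752-1 (0.0123%) and 2 lower (0.0246%), and 381 had an unadjusted p under 0.05 (4.69%). In ve-1 its adjusted p was 0.0829. The difference of its strain differences between the genotypes was the only one edgeR called (adjusted p = 0.0139; 0.0123% of the tested genes), while DESeq2 called 38 (0.468%). All 4 ve-1 libraries had to be in the fit for these calls: without any 1 of them the adjusted p in wild type was 0.0945 to 0.105 and that of the difference between genotypes was 0.0593 to 0.0715. Over all alternatives run, 14 in wild type and 13 for the difference, the adjusted p ran from 7.85e-10 to 0.149 and from 2.23e-22 to 0.0715. The neighbouring gene NCU09969, which overlaps NCU09968 in the annotation, had the same split with 63 and 0 counts in standard medium and 41 and 1 in iron-free medium in wild type (3752-1 first), and 0 and 51 and 0 and 18 counts in ve-1 (7374 first). Without a stated strand setting the counts of these 2 genes cannot be fully separated. The next genes on either side, stk-49 and NCU07061, stood at 37.4 to 85.0 CPM and 33.8 to 89.0 CPM in all 8 libraries.

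A search of all genes for at most 2 counts in both libraries of a strain code and at least 50 in both libraries of the other code of that genotype found matA-1 and NCU09968 for 3753 and NCU09968 for 7374. It found 0 genes for 3752-1 and 0 for 7373. With at least 20 counts in the other code, NCU09969 was added for 3753 and no other gene for any code.

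**Figure D3:**
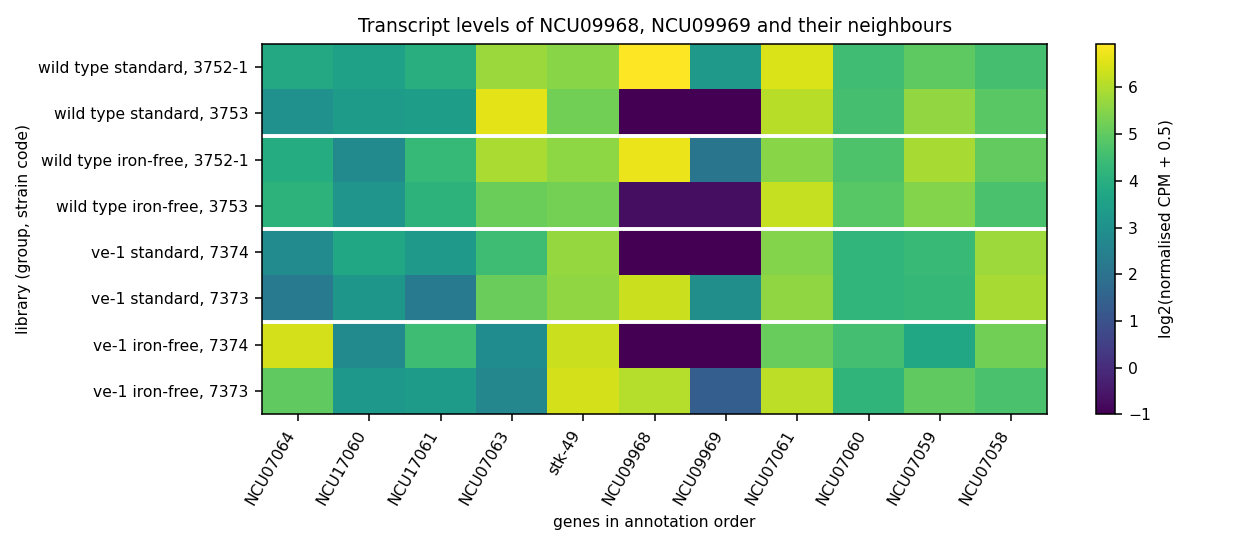
Level of NCU09968, NCU09969 and their neighbours in annotation order, as log2(normalised CPM + 0.5), in each library, with the matA-1 side first in each group. The 2 genes are dark in both libraries of 3753 and both of 7374, while their neighbours have signal in all 8 libraries.

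In wild type, the other 2 called genes were neighbours of pks-5, a polyketide synthase gene, and were lower in 3752-1 than in 3753. NCU09636 stood at 0.144 CPM in 3752-1 and 4.07 CPM in 3753 in standard medium, and at 11.3 and 252 CPM in iron-free medium. NCU09639 stood at 0.722 and 10.4 CPM in standard medium, and at 61.0 and 1074 CPM in iron-free medium. The standard-medium levels rest on few counts, 1 and 27 for NCU09636 and 5 and 69 for NCU09639 (3752-1 first). Each was thus lower in 3752-1 within each medium, while the iron-free 3752-1 library was above the standard-medium 3753 library, so the 2 codes overlapped across media. The log2 differences were -4.50 ± 0.34 (adjusted p = 0.0420, edgeR) and -4.04 ± 0.34 (adjusted p = 0.0489, edgeR). Both calls were lost without any 1 ve-1 library (adjusted p 0.186 to 0.202) and without either wild-type library from iron-free medium (0.0528 to 0.261). With upper-quartile scaling, all 3 wild-type calls were lost (adjusted p = 0.0524 for each, edgeR). Over their 14 alternatives the adjusted p ran from 1.52e-11 to 0.261 for NCU09636 and from 1.13e-13 to 0.268 for NCU09639. NCU09636 overlaps another annotated gene.

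All 9 genes from NCU10285 to NCU10572, a run that holds pks-5, were lower in 3752-1 than in 3753 in both media, as were 23.8% of the tested genes. NCU10285 is the first gene of the stretch described here, so the end of the run on that side is not known. In standard medium the ratios of 3753 to 3752-1 were 1.41 for NCU09635, 1.35 for NCU09637 and 1.38 for NCU10572. pks-5 itself stood at 1.59 and 4.07 CPM in standard medium (11 and 27 counts) and 15.3 and 1482 CPM in iron-free medium (3752-1 first). Its wild-type log2 difference was -4.71 ± 1.45 (adjusted p = 0.896, edgeR), and -6.59 to -1.35 over its 14 alternatives. DESeq2 called it in wild type (adjusted p = 0.00159), as it did NCU09641 (2.08e-11) and NCU10285 (0.0125). NCU10285 had 3 and 9 counts in standard medium. NCU09641 stood at 0.867 and 10.9 CPM and at 8.84 and 286 CPM. NCU09640 had 0 counts in 3752-1 and 29 in 3753 in standard medium, a level at least 10.1-fold higher in 3753, and a ratio of 14.4 (12.1 to 17.2) in iron-free medium. The 3753 library from iron-free medium was the highest of the 8 for 8 of the 9 genes, and NCU10572 was highest in 3753 in standard medium.

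Beyond the run, the next genes NCU09642, NCU09643 and uvs-3 had wild-type log2 differences of 0.27, 0.15 and 0.08. In ve-1, 6 of the 9 genes stood at or below 1.53 CPM in every library: NCU10285, NCU09636, pks-5, NCU09639, NCU09640 and NCU09641. NCU09635, NCU09637 and NCU10572 stood at 10.4 to 56.0 CPM, 106 to 364 CPM and 4.10 to 26.2 CPM there. The difference of NCU09639 between the genotypes was 5.31 ± 0.64 on the log2 scale (adjusted p = 0.254, edgeR). NCU09636, NCU09637, pks-5 and NCU10572 overlap annotated neighbours, so part of their counts may be shared.

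**Figure D4:**
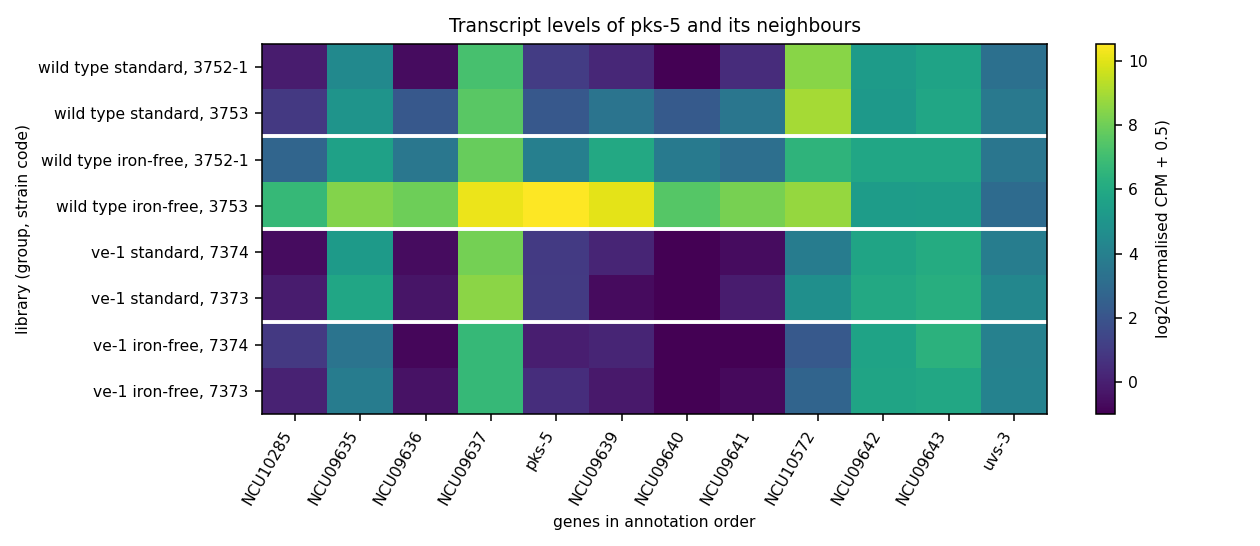
Level of pks-5 and its neighbours in annotation order, as log2(normalised CPM + 0.5), in each library, with the matA-1 side first in each group. The run from NCU10285 to NCU10572 is brightest in 3753 in iron-free medium, where pks-5 stood at 1482 CPM, and is dark for 6 genes in the ve-1 libraries.

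Some light-responsive and carotenoid genes, among them vvd, cry, phr, bli-4, wc-1, al-1 and al-2, stood lower in 3752-1 than in 3753 in both media, with the larger ratio in the iron-free pair of libraries. None was called by edgeR. Light in Neurospora acts through the White Collar complex of wc-1 and wc-2, and vvd encodes the photoreceptor that damps the response. vvd stood at 200.8 CPM in 3752-1 and 1123 CPM in 3753 in standard medium, and at 122.6 and 2582 CPM in iron-free medium. In ve-1 it stood at 709 CPM in 7374 and 541 CPM in 7373 in standard medium, and at 127 and 74.1 CPM in iron-free medium. The wild-type codes did not overlap, as was so for 20.5% of the tested genes, and in ve-1 the order was reversed in both media. In wild type the log2 difference was -3.44 ± 0.55 (adjusted p = 0.489, edgeR; adjusted p = 9.59e-09, DESeq2; up to 0.831 over its 14 alternatives). The difference between genotypes was 4.02 ± 0.73 (adjusted p = 0.629, edgeR), and DESeq2 called this difference for vvd, cry, phr and bli-4.

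Of the 13 light and clock genes on the list, 8 were lower in 3752-1 in both media (background 23.8%) and 8 were higher in 7374 in both media (background 25.3%). For 6 of the 13 both held (background 6.66%). None was called by edgeR; at an unadjusted p under 0.05, 5 were lower in wild type (3.18% of all genes), and DESeq2 called 5 in wild type, cry, wc-1, vvd, phr and bli-4 (0.515% of all genes called lower). The list's median log2 difference was -0.65 in wild type and 0.22 in ve-1, beside 0.00 and 0.02 over all tested genes. The cryptochrome gene cry, which overlaps another gene, stood at 173 and 579 CPM in standard medium and 31.8 and 836 CPM in iron-free medium in wild type. The photolyase gene phr stood at 45.9 and 135 CPM and at 39.3 and 310.1 CPM, and the light-induced gene bli-4 at 88.7 and 241 CPM and at 12.5 and 534 CPM. The photoreceptor gene wc-1 stood at 132 and 270.3 CPM and at 114 and 412 CPM. wc-2, frq and frh, whose products form the core of the clock with WC-1, had wild-type log2 differences of 0.02, -0.37 and -0.02. The opsin-like gene nop-1 ran the other way in ve-1, at 391 and 42.0 CPM in 7374 against 710.4 and 114 CPM in 7373 (standard medium first), a log2 difference of -1.15 ± 0.29 (adjusted p = 0.997, edgeR).

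Of the 6 carotenoid genes, 3 were lower in 3752-1 in both media (background 23.8%): al-1 (phytoene desaturase), al-2 (phytoene synthase) and cao-2 (the oxygenase that cleaves torulene). al-1 stood at 230.4 and 1099 CPM in standard medium and 24.2 and 2052 CPM in iron-free medium in wild type. In ve-1 its order turned between media, with 1102 CPM in 7374 and 215 CPM in 7373 in standard medium and 169 and 703 CPM in iron-free medium. al-2 stood at 126 and 879.9 CPM and at 173 and 1682 CPM for the wild-type codes, whereas the ve-1 codes were at 549 and 214 CPM and at 47.1 and 116 CPM. al-2 had a wild-type log2 difference of -3.04 ± 0.67 (adjusted p = 0.712, edgeR) and was called by DESeq2 (adjusted p = 0.000167; 0.000167 to 0.732 over its 14 alternatives). al-3 and cut-1 changed order between the wild-type media, and ylo-1, which acts late in the pathway, was higher in 3752-1 in both, at 224 and 189 CPM and at 93.9 and 86.4 CPM.

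**Figure D5:**
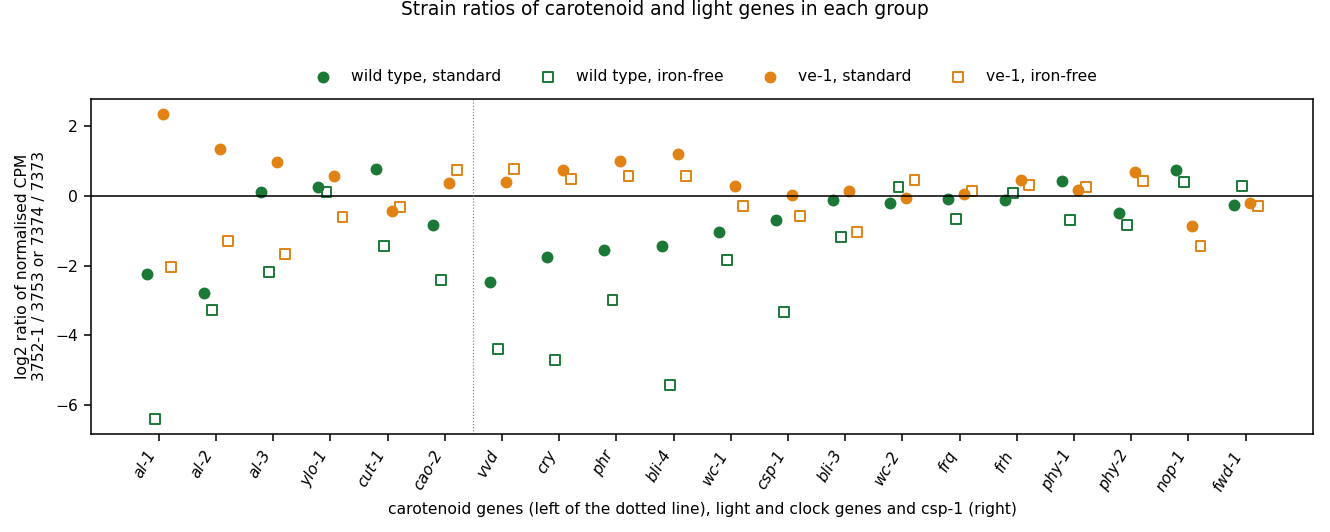
Log2 ratio of normalised CPM between strain codes (3752-1 over 3753, or 7374 over 7373) in each group for carotenoid genes and for light and clock genes with csp-1; filled circles are standard medium and open squares iron-free medium, green is wild type and orange ve-1. The wild-type ratios of al-1, vvd, cry and bli-4 in iron-free medium lie lowest, and the ve-1 ratios of vvd, cry, phr and bli-4 lie above 0.

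Other wild-type differences with small p values were NCU02190, NCU06420, hgt-1, NCU07894, NCU00292 and tca-11. NCU02190 stood at 26.3 and 193 CPM in standard medium and 32.7 and 262 CPM in iron-free medium (3752-1 first), without overlap, and NCU06420 at 48.0 and 219 CPM and at 98.5 and 533 CPM. Their log2 differences were -2.94 ± 0.28 (adjusted p = 0.0780, edgeR) and -2.32 ± 0.26 (adjusted p = 0.156, edgeR), and DESeq2 called both. hgt-1, which encodes a high-affinity glucose transporter, was higher in 3752-1, at 749.5 and 261 CPM and at 252 and 60.6 CPM, with a log2 difference of 1.79 ± 0.31 (adjusted p = 0.491, edgeR; adjusted p = 0.000112, DESeq2; up to 0.781 over its 14 alternatives). In ve-1 hgt-1 stood at 839 and 1037 CPM and at 425 and 478 CPM (7374 first). NCU07894, which overlaps another gene, stood at 58.5 and 3.02 CPM in wild type in standard medium and at 4.88 and 37.1 CPM in ve-1 (7374 first), so the genotypes had opposite orders. DESeq2 called 48 genes in wild type (0.603%), 7 higher (0.0879%) and 41 lower in 3752-1 (0.515%), and these held all 3 genes called by edgeR.

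In ve-1, edgeR called 0 of 8118 genes (0%), 238 had an unadjusted p under 0.05 (2.93%), and DESeq2 called 5 (0.0616%; 4 lower in 7374, 0.0493%), am, NCU02049, poi-2, NCU09968 and NCU09969. am, the NADP-dependent glutamate dehydrogenase gene, stood at 469 CPM in 7374 and 148 CPM in 7373 in standard medium, and at 3855 and 1024 CPM in iron-free medium. Its log2 difference was 1.79 ± 0.30 in ve-1 (adjusted p = 0.997, edgeR; adjusted p = 0.000182, DESeq2; 0.000182 to 1 over its 14 alternatives). In wild type the codes stood close, at 319 and 279 CPM and at 615 and 595 CPM. NCU09841, NCU08407, NCU09497 and NCU03151 were also higher in 7374 in both media, by 1.47 to 1.74 on the log2 scale. NCU07068, NCU01095 and NCU08165 were lower in 7374 in both media, by log2 differences of -1.95, -2.04 and -1.29 (adjusted p = 0.997 for all 7, edgeR).

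Of the 21 conidiation genes on the list, 5 were over 4-fold lower in 7374 than in 7373 in iron-free medium, beside 2.03% of all genes, and 0 were over 4-fold higher (0.271%). The 5 were eas, fl, acon-3, con-13 and con-10, in a pair with 1 library a code and so no test. The hydrophobin gene eas stood at 2484 CPM in 7374 and 51510 CPM in 7373 there, and at 101200 and 91760 CPM in standard medium. The conidiation regulator fl stood at 36.8 and 308 CPM in iron-free medium and at 228 and 274 CPM in standard medium, and acon-3 at 2.97 and 37.3 CPM and at 31.6 and 17.8 CPM. con-13 had 0 CPM in 7374 and 39.1 CPM in 7373 in iron-free medium, and 50.5 and 36.4 CPM in standard medium. Of the 21 genes, 17 were lower and 4 higher in 7374 in that iron-free pair; ccg-13 stood at 852 and 324 CPM, ccg-14 at 2012 and 729 CPM, and con-6 close at 51.3 and 50.4 CPM. Over the list of 21 genes, which holds ccg-4, 0 were called by edgeR in any comparison. For the difference between media, 8 of the 21 were lower at an unadjusted p under 0.05, beside 3.47% of all genes, and DESeq2 called ccg-4 and csp-2. The median over the list was -1.27 on the log2 scale, beside 0.02 over all genes. Over all genes, edgeR called 0 of 8118 for the difference between media (0%), 482 had an unadjusted p under 0.05 (5.94%), and DESeq2 called 42 of the 6386 genes it gave an adjusted p (0.658%).

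In the remaining lists edgeR called 0 genes. Of the 29 tested genes of respiratory complex I, 21 were lower in 3752-1 in both media, beside 23.8% of all tested genes. Their median wild-type log2 difference was -0.18, beside a median of 0.00 and a median size of 0.23 over all tested genes. Total-count scaling shifted the median of all genes by 0.19, and the median of this list under that scaling was not computed. In ve-1 the order turned with the medium. In standard medium 0 were lower and 29 higher in 7374, while in iron-free medium 26 were lower and 3 higher. Thus 0 of the 29 were lower in 7374 in both media (background 22.3%) and 3 were higher in both (background 25.3%). The 29 tested genes of meiosis and recombination had a median of 0.03 over both genotypes, the 17 genes of the TCA cycle 0.17, the 9 histone genes 0.11, the 10 heat-shock genes -0.02 and the 9 iron genes -0.04, beside 0.01 over all genes. The 6 genes of acetate use had a median of 0.45. Among them acu-3, the isocitrate lyase gene, stood in standard medium at 1542 and 704 CPM for the wild-type codes and at 1046 and 321 CPM for the ve-1 codes (matA-1 side first), but at 75.0 and 83.6 CPM and 805 and 959 CPM in iron-free medium. Of 71 tested genes for plant cell wall breakdown the median was -0.02, and of 6 heterokaryon incompatibility genes it was -0.19.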

How the data were processed

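Each library was deposited by the authors as raw read counts per gene, with no normalization. FastQC, Trim Galore, STAR and DESeq2 are named in the submitters' processing notes. A stranded mRNA kit is named in the labels' protocols, but no source used here gives the counting tool, the strand setting or the genome build. The authors' 4 tables of comparisons were not used.

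Groups came from the sample labels. Sides came from the strain code in each count file's name, ordered by counts of matA-1. The genes and lists described were chosen with earlier results of these data known. The labels call the 2 libraries of a group duplicate cultures, but each group held a single library of each side. The p-values therefore measure how much the difference between sides varied from group to group, which includes the spread between cultures. No strain code was repeated within a medium, and a strain code cannot be told apart from what else its cultures share.

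The analysis ran in R 4.3.3 with edgeR 4.0.16 and limma 3.58.1. Low genes were removed by filterByExpr (minimum count 10, minimum total 15), which left 8118 of 9730 genes, and TMM factors scaled the libraries. Two-sided quasi-likelihood F tests with robust dispersions and Benjamini-Hochberg adjustment over all tested genes were run on all 8 libraries. The model over both genotypes held group and side (3 residual degrees of freedom). The models within a genotype or medium held group and 1 side term for each (2 residual degrees of freedom). Calls needed an adjusted p under 0.05, and a log2 difference is the matA-1 side minus the other. The SE after ± is the size of the log2 difference divided by the square root of its F statistic. Scripts were tested on simulated data. Alternatives were DESeq2 1.42.0, other scalings, no low-count filter, no robust moderation, fewer libraries, other blocks and each library left out. With group as a block, the partner of a left-out library adds nothing to the side term, so leaving out either library of a group removes the same pair.

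Genes named were, per comparison and direction, called genes with the same order in every group and a mean of at least 20 CPM on 1 side, or, with fewer than 5 calls, the 5 such genes with the smallest p. To these were added the mating, pheromone and carotenoid lists and genes near-absent in 1 strain code. Other genes described were chosen after their values were seen. A fold against a library at 0 is a bound against 3 counts, per library or summed as stated. Ratios of counts carry exact 95% binomial intervals. Symbols and gene order came from RefSeq's annotation of NC12. It held 9729 of the 9730 identifiers and gave 1089 tested genes a symbol. Of 48 genes named by the rule, 11 overlap another annotated gene.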

Additional observations from a re-analysis of the deposited data

Results flagged for a closer look

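For 18 of the genes checked, the strain difference kept its sign across media within each genotype but was opposite in wild type and ve-1. Of all tested genes, 6.66% were lower in 3752-1 and higher in 7374 in both media, and the share with the reverse order was not computed. The genes checked had been picked for this report, many by small p values, so the 18 are not a share of all genes. Not every gene described here was checked: frq had such orders too and is not among the 18. The difference between the genotypes (ve-1 minus wild type, log2) was tested with edgeR for each of the 18. It was called for NCU09968, at -22.66 (adjusted p = 0.0139), a size that depends on the prior count because libraries held 0 counts. edgeR did not call it for the others, while DESeq2 called it for all of the set but cao-2, pre-1, NCU01095 and nop-1. Over all 8118 tested genes DESeq2 called 38 (0.468%). The set was picked by the signs of the same values, so its larger share of calls is not a separate result. NCU09969, the overlapping neighbour of NCU09968, had -14.18 (adjusted p = 0.366, edgeR). Among genes lower in 3752-1 than in 3753 and higher in 7374 than in 7373, the values were 5.31 for NCU09639 and 3.39 for NCU02190 (adjusted p = 0.254 and 0.248), 3.22 for NCU06420 (0.248), 2.55 for NCU09841 (0.411) and 3.35 for NCU03151 (0.629). The ve-1 order of NCU09639 rests on few counts, 4 in 7374 and 1 in 7373 in standard medium and 8 and 3 in iron-free medium. The light and carotenoid genes in this set had 4.02 for vvd, 3.84 for cry, 3.07 for phr, 4.30 for bli-4 and 2.18 for cao-2, with adjusted p values of 0.629 to 0.989. The receptor gene pre-1 had 1.17 (adjusted p = 0.999). Among genes with the reverse order, the values were -2.03 for hgt-1 (adjusted p = 0.817), -6.88 for NCU07894 (0.317), -3.09 for NCU07068 (0.617), -3.75 for NCU01095 (0.898) and -1.72 for nop-1 (0.898). The wild-type order of NCU01095 rests on 7 and 1 counts in standard medium and 5 and 2 in iron-free medium (3752-1 first). In iron-free medium NCU07894 had 7 and 2 counts in wild type (3752-1 first) and 1 and 12 in ve-1 (7374 first).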

How the results depend on the processing

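With matA-1 left out of the count, the comparison over both genotypes called 0 genes in every edgeR setting and 2 with DESeq2. With the replicate block it also called 0. Same-numbered libraries carry opposite sides in the 2 genotypes, and their deviations from the group means had correlations of -0.03 to 0.13. Within a genotype the replicate number is the same as the strain code, and whether same-numbered libraries share anything else was not tested. In wild type the count of 3 became 48 with DESeq2, 0 with upper-quartile scaling, 5 with total-count scaling (1 higher and 4 lower), 5 with no low-count filter, 0 with the 4 wild-type libraries alone, and 0 to 16 with 1 library left out. It was 0 without any 1 of the 4 ve-1 libraries, 12 without 3752-1 or 3753 in standard medium, and 16 and 15 without 3752-1 and 3753 in iron-free medium. The ve-1 count of 0 became 5 with DESeq2, 1 with total-count scaling, 1 with no filter, 1 with the ve-1 libraries alone, and 0 to 2 with 1 library left out. The difference between genotypes went from 1 to 38 with DESeq2 and to 0 to 9 with 1 library left out, 0 without any 1 ve-1 library. The difference between media went from 0 to 42 with DESeq2 and was 0 to 0 with 1 library left out. Total-count scaling shifted the median of all genes by 0.11 over both genotypes, 0.19 in wild type and 0.24 for the difference between media (log2). Of the values of single genes under an alternative, 826 kept their side of the threshold, 45 gained a call and 27 lost one, and none changed direction. The cause of these shifts was not tested. Calls rest on 2 or 3 residual degrees of freedom, and matA-1 in ve-1 in iron-free medium rests on 5 counts and 1 count.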
